A study of Mus musculus with 8 samples.

Results

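The 35 genes described here encode the subunits of voltage-gated calcium channels, voltage-gated sodium channels and hyperpolarization-activated HCN channels. They were chosen by gene symbol, with earlier results of these data known. The source was a normalised expression table of 56575 rows, of which 24338 carry a symbol. The symbols had to follow the Cacna1, Cacna2d, Cacnb, Scn or Hcn naming pattern, with a single closing letter or digit. They form 8 subfamilies: 4 Cav1, 3 Cav2 and 3 Cav3 pore genes, 4 alpha2delta genes, 4 Cav beta genes, 9 Nav alpha genes, 4 Nav beta genes and 4 HCN genes. Scn1a had a second row of 268 bases, and its row with the higher mean was used. The table spells Scn2a, the gene of a major sodium channel of excitatory neurons, as Scn2a1, so the naming pattern left it out. Its values are given once beside the sodium channels.

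RNA-seq libraries were compared from the hippocampus of C57BL/6 mice aged 8 weeks, 4 labelled Slm2KO and 4 labelled WT. SLM2 is the protein of Khdrbs3, a STAR family RNA-binding protein that regulates alternative splicing in neurons. The sources used here do not give which part of Khdrbs3 the knockout allele removes, nor whether each library is a separate animal. The p-values therefore measure the spread between these samples, part of which may be technical.

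Voltage-gated calcium channels admit calcium when the membrane depolarizes. Each is built on a pore-forming alpha1 subunit, and many carry a cytoplasmic beta subunit and an extracellular alpha2delta subunit that set trafficking and gating. Sodium channels start and carry the action potential through an alpha pore, with beta subunits that adjust gating and adhesion. HCN channels open on hyperpolarization, and in hippocampal pyramidal cells they set the resting potential and damp dendritic summation.

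Promoter windows are shown for 4 members that the results below turn on: Scn8a, the most abundant Nav alpha member, and Scn7a, Scn9a and Cacna2d2, whose values varied together across libraries. Each is the 250 bases before the RefSeq start nearest to the start of the row, on build GRCm38.p6, and capitals mark CG dinucleotides. Scn8a lies at chr15:100870395-100870644 on the plus strand, Cacna2d2 at chr9:107399630-107399879 on the plus strand, Scn7a at chr2:66784911-66785160 on the minus strand and Scn9a at chr2:66634963-66635212 on the minus strand.
Scn8a: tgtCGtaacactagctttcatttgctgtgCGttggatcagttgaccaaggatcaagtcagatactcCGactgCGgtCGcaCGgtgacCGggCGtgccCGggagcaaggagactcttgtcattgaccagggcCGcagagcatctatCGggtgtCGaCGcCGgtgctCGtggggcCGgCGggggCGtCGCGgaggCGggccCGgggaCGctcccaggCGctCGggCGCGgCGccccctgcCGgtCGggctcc
Cacna2d2: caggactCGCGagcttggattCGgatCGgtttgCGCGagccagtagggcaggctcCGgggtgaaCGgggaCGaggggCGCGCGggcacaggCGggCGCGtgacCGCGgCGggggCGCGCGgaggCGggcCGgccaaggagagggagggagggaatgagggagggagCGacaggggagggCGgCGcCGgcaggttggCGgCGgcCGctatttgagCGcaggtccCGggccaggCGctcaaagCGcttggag
Scn7a: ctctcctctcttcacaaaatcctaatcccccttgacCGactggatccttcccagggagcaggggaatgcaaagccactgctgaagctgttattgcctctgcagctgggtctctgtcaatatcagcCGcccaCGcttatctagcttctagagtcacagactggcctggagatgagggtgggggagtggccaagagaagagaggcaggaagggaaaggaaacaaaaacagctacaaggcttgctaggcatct
Scn9a: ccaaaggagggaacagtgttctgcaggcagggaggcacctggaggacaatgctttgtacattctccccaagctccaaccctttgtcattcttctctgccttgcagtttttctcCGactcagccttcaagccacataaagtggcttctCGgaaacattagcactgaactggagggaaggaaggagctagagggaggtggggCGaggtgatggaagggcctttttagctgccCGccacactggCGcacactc
The Cacna2d2 window held 34 CG and the Scn8a window 30, against 5 in Scn9a and 3 in Scn7a. The genes that varied together thus had windows of both kinds. RefSeq windows matched 25 of the 35 members, with a median of 9 CG, beside a median of 6 over all 32851 windows. GGGCGG, searched on both strands, occurred in 48% of the member windows and 32.7% of all windows. TATAAA, searched likewise, occurred in 4% of the member windows and 12.4% of all windows. A match of letters is a description of the window.

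Depth ran from 104020058 to 125985224 recovered reads per library. Khdrbs3 itself did not read lower in the libraries labelled Slm2KO: it averaged 29749 ± 3040 normalised reads there and 22051 ± 2387 in the WT libraries (SD, n = 4 each), a log2 difference of 0.43 (SE 0.093, limma adjusted p = 1.00). DESeq2 gave it an adjusted p of 0.019, and the groups did not overlap. Without the position of the deletion, a count over the whole gene does not check the labels, so groups are named by their labels throughout. Over the whole table limma called 1 of 25667 features, or 0.0039%, at an adjusted p under 0.05. That feature was Khdrbs2, the gene of the SLM2 relative SLM1, with 2481 ± 290 normalised reads in the libraries labelled Slm2KO and 1096 ± 98.4 in the WT libraries (SD, n = 4 each). Its log2 difference was 1.18 (SE 0.099, limma adjusted p = 0.0076). With Slm2KO 1, Slm2KO 3, WT 1 or WT 4 left out, limma called 0 features, and at an unadjusted p under 0.05 it gave 268 to 620 higher and 328 to 621 lower features. Summed markers of neurons ran from 510341 to 692857 normalised reads in the libraries labelled Slm2KO and from 569769 to 681266 in the WT libraries, with all 6 above a mean of 10. The cerebellar granule cell markers Gabra6 and Cbln3 averaged 5.27 and 88.9 normalised reads, and the muscle markers Ckm, Myh6, Acta1 and Myh7 averaged 2.03, 34.9, 407 and 1388. Summed choroid plexus markers differed 10.3-fold between libraries.

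No channel gene passed the limma threshold between the libraries labelled Slm2KO and WT, and most were held to narrow intervals. All 35 members had a mean of at least 10 and were tested, and 0 were called, beside 0.0039% of all features. At an unadjusted p under 0.05 limma gave 1 member, Cacna1h, as did edgeR and DESeq2, beside 3.52% of all features under limma, 3.8% under edgeR and 3.68% under DESeq2. The log2 difference was positive for 11 members and negative for 24, with a median of -0.044. Over all features tested, 53.9% were negative and the median was -0.011. Of the 35 members, 27 had a 95% interval that stayed within 1.5-fold in either direction, which is 77.1%, against 65.7% of all features. Within 2-fold were 32 members, beside 85.2% of all features. The intervals followed abundance. Of the 25 members with a mean of at least 1000, 24 lay within 1.5-fold, or 96%, against 97.4% of the 10831 features as abundant. Of the other 10 members, 3 did. In a bulk sample, fewer cells of a type and less RNA per cell cannot be told apart, which holds for every value here.

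**Figure D1:**
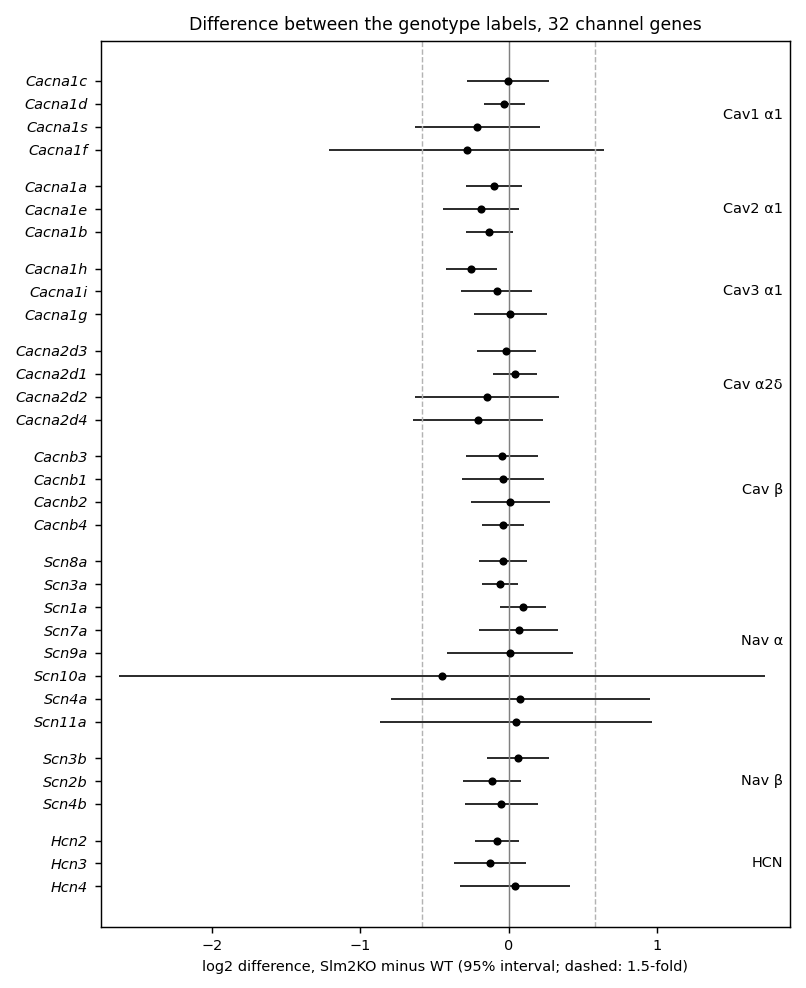
Log2 difference of 32 channel genes, libraries labelled Slm2KO minus WT (point, limma fit), with its 95% interval (bar, n = 4 each); genes are grouped by subfamily and ordered by abundance, and dashed lines mark 1.5-fold. Cacna1h is the member whose interval leaves out 0, and the widest intervals belong to the rarest genes, with Scn10a the widest.

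The order of abundance within each subfamily was steep. Levels of different genes were compared as normalised reads per kilobase of annotated exon. The sodium channel beta subunit gene Scn3b was among the highest, at 11588 ± 1160 per kilobase (SD over 8 libraries). The lowest of the 35 members were Cacna1f, Scn11a, Scn4a and Scn10a, at means of 2.57, 2.38, 2.04 and 1.92 per kilobase. Of 27 pairs of neighbours in the order within a subfamily, 24 stood in the same order in each of the 8 libraries. With the longest transcript as the length, 24 of the 27 kept their order. Cacnb4 over Cacnb2 and Scn4a over Scn10a were among the pairs whose order turned.

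**Figure D2:**
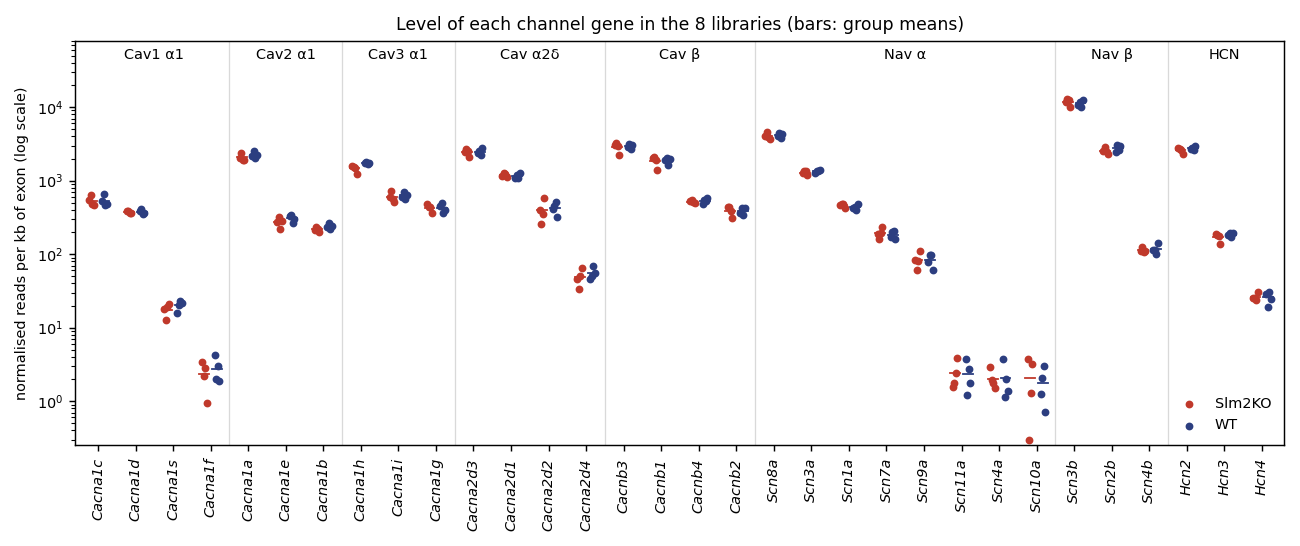
Level of 32 channel genes in normalised reads per kb of exon (log axis) in the 4 libraries labelled Slm2KO (red, left) and the 4 WT libraries (blue, right), with group means as bars. Scn3b is highest of those drawn and Cacna1f, Scn11a, Scn4a and Scn10a lowest; the value of 0 for Scn10a in Slm2KO 2 is drawn near the lower edge because a log axis has no 0.

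Among the pore genes of the high-voltage-activated calcium channels, the P/Q-type gene Cacna1a, whose channel drives transmitter release at many central synapses, led by level. Its per-kilobase level averaged 2151 ± 210 (SD over 8 libraries), 7.36 times that of Cacna1e. Cacna1a had 23542, 27295, 22070 and 21959 normalised reads in Slm2KO 1 to 4, against 24658, 28598, 23112 and 25214 in WT 1 to 4. The groups overlapped, with WT 2 highest and Slm2KO 4 lowest. The fitted log2 difference of Cacna1a was -0.10 (SE 0.085), and its interval ran from 0.818-fold to 1.06-fold. The R-type gene Cacna1e (log2 -0.18, SE 0.12) and the N-type gene Cacna1b (log2 -0.13, SE 0.071) also had intervals that include no change. Cacna1e lay above Cacna1b per kilobase in each of the 8 libraries, by a mean ratio of 1.29, though their ranges over libraries overlapped.

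The L-type gene Cacna1c, the main neuronal and cardiac dihydropyridine target, had a per-kilobase level of 532 ± 76.8 (SD over 8 libraries). It exceeded Cacna1d, whose channel opens at more negative voltages, 1.41 times. Normalised reads of Cacna1c were 11429, 13469, 10293 and 9777 in Slm2KO 1 to 4, against 11337, 13909, 9846 and 10055 in WT 1 to 4. The second library of each group was the highest, and the means nearly coincided, with a log2 difference of -0.0028 (SE 0.12). Cacna1d had a log2 difference of -0.029 (SE 0.062) and an interval from 0.891-fold to 1.08-fold. Cacna1s, the skeletal muscle pore, averaged 124 normalised reads, and 18.2% of the 30-base stretches of its annotated exons also occur in other genes, chiefly Gm37759. Cacna1f, the retinal pore, averaged 23.3 normalised reads, and its row overlaps that of Ccdc22 on the other strand, which averaged 7016. The rows of Cacna1c and Cacna1d overlap those of Dcp1b and Dcp1a on the other strand, which averaged 1517 and 1335 normalised reads. Because the library kit keeps no strand, reads from exon sequence shared by overlapping rows cannot be assigned to one of them. Of the 30-base stretches, 0.191% in Cacna1c, 0.215% in Cacna1f and 4.77% in Cacna1d also occur in other genes. Dcp1b, Ccdc22 and Dcp1a are not among the main genes that share them, but Chdh is the first of these for Cacna1d. The row of Chdh overlaps that of Cacna1d by 521 bases on the other strand and averaged 395 normalised reads.

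Cacna1h was the 1 member whose groups did not overlap, and it was the leading T-type gene. T-type channels open near the resting potential and support burst firing. Its row spans chr17:25374288-25433784 on the minus strand of mm10, and it overlaps the row of Tpsg1 by 155 bases. Cacna1h had 15623, 15154, 14395 and 11993 normalised reads in Slm2KO 1 to 4, against 16889, 17411, 16505 and 16846 in WT 1 to 4. Every library labelled Slm2KO lay below every WT library, and Slm2KO 4 stood furthest down. The means were 14291 ± 1614 in the libraries labelled Slm2KO and 16913 ± 374 in the WT libraries (SD, n = 4 each).

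The log2 difference of Cacna1h was -0.25 (SE 0.078), or 0.841-fold with an interval of 0.746 to 0.948. It did not pass the threshold: the unadjusted p was 0.0092 and the adjusted p 1.00 in limma, with 0.703 the lowest adjusted p among the alternatives, from DESeq2. The two-sided exact permutation p was 0.0286, the smallest that 70 assignments can give, and groups with no overlap occurred in 2.5% of all features, and with Slm2KO lower in 1.17% of all features. Because the groups did not overlap, any split of these values gives a negative difference, so its sign in a part of the libraries adds no support. The difference was -0.16 for the lower sample numbers and -0.34 for the higher, with 2 libraries per group in each. Without Slm2KO 4 it was -0.17. Without Slm2KO 4 and WT 2, the libraries with the most and least Ttr, a choroid plexus transcript, it was -0.15.

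Markers of dentate granule cells and of several other cell types stood in the same direction beside Cacna1h, while most markers of some others did not. All 5 granule cell markers had a negative log2 difference, none called: Prox1 -0.20, C1ql2 -0.12, Dsp -0.26, Tdo2 -0.26 and Calb1 -0.13. Their summed normalised reads ran from 19808 to 27273 in the libraries labelled Slm2KO and from 26361 to 28434 in the WT libraries. Tdo2, like Cacna1h, had no overlap between the groups, and Slm2KO 4 was the lowest library for both. Negative log2 differences were also found for 5 of 5 endothelial markers, 4 of 4 oligodendrocyte precursor markers, 4 of 4 matched CA2 and CA3 markers and 5 of 6 neuronal markers, beside 53.9% of all features. The astrocyte, oligodendrocyte and microglia lists each had 4 of 5 negative. So were all 3 muscle markers tested and the 1 cerebellar granule cell marker tested. Summed endothelial markers ran from 7899 to 11456 normalised reads in the libraries labelled Slm2KO and from 9756 to 12573 in the WT libraries, and Slm2KO 4 was again lowest. It was also lowest for the summed neuronal, CA2 and CA3, GABAergic interneuron, oligodendrocyte precursor, microglia and cerebellar granule cell markers. Positive log2 differences were found for 4 of 5 CA1 pyramidal markers, 5 of 7 GABAergic interneuron markers, 4 of 6 choroid plexus markers and 3 of 3 sensory neuron markers. The part of these markers in the Cacna1h difference was not tested.

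For the other T-type genes the groups overlapped. Cacna1i had a log2 difference of -0.080 (SE 0.11) and Cacna1g, the T-type pore of thalamic relay cells, 0.011 (SE 0.11). Within the summed per-kilobase level of the 3 T-type genes, Cacna1h made up 59.7%, 57.2%, 59.7% and 58.5% in Slm2KO 1 to 4, against 62.0%, 59.8%, 64.5% and 62.6% in WT 1 to 4. The highest share in a library labelled Slm2KO lay just below the lowest WT share. Within all 10 calcium channel pores the groups overlapped, with Cacna1h at 23.0% to 25.9% in the libraries labelled Slm2KO and 24.8% to 28.3% in the WT libraries.

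The alpha2delta genes were led by Cacna2d3, with Cacna2d1, a gabapentin-binding subunit, next. Their per-kilobase levels averaged 2449 ± 226 and 1176 ± 76.1 (SD over 8 libraries). Cacna2d3 had 21218, 23482, 22245 and 18112 normalised reads in Slm2KO 1 to 4, against 20555, 21877, 19411 and 23924 in WT 1 to 4. The groups overlapped and Slm2KO 4 was again the lowest. The log2 differences were -0.014 (SE 0.089) for Cacna2d3 and 0.046 (SE 0.066) for Cacna2d1, with intervals from 0.863-fold to 1.14-fold and from 0.932-fold to 1.14-fold. RefSeq windows of Cacna2d1, Cacna2d2 and Cacna2d3 held 36, 34 and 30 CG. Cacna2d4, the retinal alpha2delta gene, averaged 495 normalised reads, and its row contains that of Lrtm2, which averaged 1706 on the other strand.

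The Cav beta genes, whose proteins bring the pore to the membrane, differed little between the groups. Cacnb3 led by level with 2896 ± 327.1 per kilobase and Cacnb1 followed with 1884 ± 240 (SD over 8 libraries). Cacnb3 had 12090, 13005, 11883 and 8934 normalised reads in Slm2KO 1 to 4, against 11382, 12761, 10656 and 12201 in WT 1 to 4. Slm2KO 4 was the lowest library and Slm2KO 2 the highest, so the libraries labelled Slm2KO spanned the WT range. The log2 differences were -0.044 for Cacnb3, -0.039 for Cacnb1, 0.013 for Cacnb2 and -0.037 for Cacnb4, the gene mutated in the lethargic mouse. Their intervals together ran from 0.804-fold to 1.21-fold. The order of Cacnb4 and Cacnb2 turned round with the longest transcript as the length, and 15.6% of the 30-base stretches of Cacnb4 also occur elsewhere, chiefly in A430018G15Rik.

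Among the sodium channel pores Scn8a, whose channel sits at the axon initial segment and nodes, had the highest level of the 9 members, at 4109 ± 302 per kilobase (SD over 8 libraries). Scn8a had 62924, 71412, 62459 and 58997 normalised reads in Slm2KO 1 to 4, against 64496, 70226, 59336 and 68354 in WT 1 to 4. The groups overlapped, with Slm2KO 2 and WT 2 highest. Its log2 difference was -0.037 (SE 0.074), and the interval ran from 0.869-fold to 1.09-fold. The row spelled Scn2a1 averaged 65561 ± 2732 normalised reads in the libraries labelled Slm2KO and 63767 ± 3909 in the WT libraries (SD, n = 4 each), a log2 difference of 0.041. At 5079 per kilobase it would stand above Scn8a.

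Scn3a, the gene of a channel best known from the embryonic brain, and Scn1a, the main pore of parvalbumin interneurons, followed at 1317 ± 64.3 and 449 ± 33.4 per kilobase (SD over 8 libraries). Scn1a had 5197, 5431, 5400 and 4679 normalised reads in Slm2KO 1 to 4, against 4683, 4856, 4493 and 5323 in WT 1 to 4. Slm2KO 1, 2 and 3 lay above WT 1, 2 and 3, while WT 4 and Slm2KO 4 broke the separation. The log2 difference of Scn1a was 0.098 (SE 0.070) and that of Scn3a -0.060 (SE 0.055). Without Slm2KO 4 the difference of Scn1a reached an unadjusted p under 0.05 in limma, with no call after adjustment. So did 601 higher and 630 lower of the 25667 features in that fit, before adjustment. Of their 30-base stretches, 9.83% in Scn3a, 7.56% in Scn1a and 6.40% in Scn9a also occur in other genes, chiefly in one another and Scn2a, so reads could be split between them.

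Several pores known from skeletal muscle and sensory neurons were rare. Scn10a, a nociceptor channel, had 32, 0, 10 and 24 recovered reads in Slm2KO 1 to 4, against 10, 18, 24 and 6 in WT 1 to 4. The count of 0 in Slm2KO 2 allows up to 3 reads, or 3.16 normalised reads, and covers counting error only. Its fitted log2 difference was -0.45 (SE 0.98), with a sign that turned in both count tests. Scn4a, of skeletal muscle, averaged 14.4 normalised reads and Scn11a, of nociceptors, 14.1, and neither gave a difference beyond its error. The rows of Scn10a and Scn11a lie inside the span of the row of Wdr48, which averaged 8781 normalised reads.

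Scn3b encodes a beta subunit that binds the sodium channel pore noncovalently. It had 64141, 71352, 69018 and 54477 normalised reads in Slm2KO 1 to 4, against 59016, 65123, 55355 and 67767 in WT 1 to 4. The groups overlapped, and Slm2KO 4 was the lowest library. The log2 difference of Scn3b was 0.064 (SE 0.094), with an interval from 0.904-fold to 1.21-fold. Scn2b had a log2 difference of -0.11 (SE 0.088). Scn4b, whose protein is linked to resurgent sodium current, averaged 570 normalised reads and had a log2 difference of -0.050 (SE 0.11).

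The leading genes of the calcium channel pore and beta families took shares that overlapped between the groups. Cacna1a was 34.7 ± 1.30% of the summed level of the 10 calcium channel pores in the libraries labelled Slm2KO and 34.2 ± 0.654% in the WT libraries (SD, n = 4 each). Cacnb3 was 50.7 ± 0.660% of the Cav beta genes in the libraries labelled Slm2KO and 50.9 ± 0.531% in the WT libraries (SD, n = 4 each). Both of these differences were smaller than the spread between libraries. Cacna2d1 had separate ranges, at 29.3 ± 0.474% of the alpha2delta level in the libraries labelled Slm2KO and 28.3 ± 0.506% in the WT libraries (SD, n = 4 each). Its ranges only just separated, with 28.997% in the lowest library labelled Slm2KO and 28.971% in the highest WT library. The shares of Cacna1h in the T-type level and of Scn3b in the Nav beta level also had separate ranges. How often such shares separate in other gene families was not computed, so no weight is put on these separations.

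**Figure D3:**
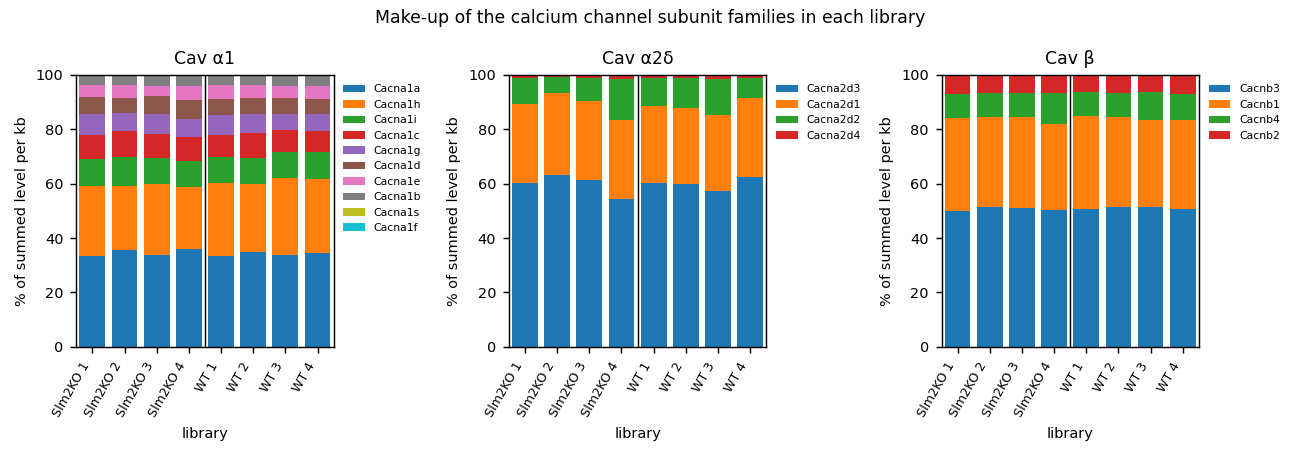
Share of each gene in the summed level per kb of the calcium channel pore, alpha2delta and beta families (stacked bars, percent) in the 4 libraries labelled Slm2KO (left of the line) and the 4 WT libraries (right). Cacna1a, Cacna2d3 and Cacnb3 lead their families in each of the 8 libraries.

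Hcn2, an HCN gene expressed widely in the brain, had a per-kilobase level of 2693 ± 181 (SD over 8 libraries), 15.2 times that of Hcn3. Hcn2 had 8891, 8709, 8412 and 7457 normalised reads in Slm2KO 1 to 4, against 8527, 8971, 8404 and 9454 in WT 1 to 4. The groups overlapped, with WT 4 highest and Slm2KO 4 lowest. Its log2 difference was -0.081 (SE 0.067), with an interval from 0.853-fold to 1.05-fold. The row of Hcn2 lies within the span of that of Tmem259, which averaged 6926 normalised reads. Hcn3 had a log2 difference of -0.12 (SE 0.11), and 16.5% of its 30-base stretches also occur elsewhere, chiefly in Pklr. Hcn4, the sinoatrial pacemaker gene, averaged 159 normalised reads and had a log2 difference of 0.043 (SE 0.17).

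Cacna2d2, Scn9a and Scn7a varied more between libraries of one label than between labels, as other members such as Cacnb3 also did. Cacna2d2, an alpha2delta gene mutated in the ducky mouse, had 3125, 2034, 2827 and 4552 normalised reads in Slm2KO 1 to 4, against 3236, 3642, 4048 and 2569 in WT 1 to 4. Slm2KO 4 was highest, followed by WT 3 and WT 2, and Slm2KO 2 lowest, so the extremes both carried the Slm2KO label. Its range was 2.24-fold, and its SD on the log2 scale, 0.37, was above that of 76.1% of the features tested. Scn7a, the sodium-sensing relative of the Nav pores, had the same 3 highest libraries and the same lowest one, over a 1.45-fold range, and its SD was above that of 51.4% of features. Scn9a, a nociceptor pore, was highest in Slm2KO 4 and lowest in WT 4, over a 1.84-fold range, with an SD above that of 70.1% of features. Cacna2d4 had WT 3 and Slm2KO 4 highest and Slm2KO 2 lowest, over a 2.08-fold range, with an SD above that of 72.3% of features. The log2 differences between the labels were -0.15 (SE 0.22) for Cacna2d2, 0.069 (SE 0.12) for Scn7a, 0.011 (SE 0.19) for Scn9a and -0.21 (SE 0.20) for Cacna2d4.

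The signs of Cacna2d2, Scn7a and Scn9a differed between the numbered series of 2 libraries per group. Cacna2d4 was negative in both, at -0.32 for the lower sample numbers and -0.090 for the higher. The lower-numbered libraries gave -0.45 for Cacna2d2, -0.084 for Scn7a and -0.29 for Scn9a. The higher-numbered libraries gave 0.15 for Cacna2d2, 0.22 for Scn7a and 0.31 for Scn9a.

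The transcription factor genes Zic1, Eomes, Sp8 and Lhx1 had orders of the libraries close to that of Cacna2d2. They were chosen after their values were seen, so the match of orders is a description and no test. Zic1 had 3960, 1287, 3678 and 8412 normalised reads in Slm2KO 1 to 4, against 4896, 4613, 7543 and 2533 in WT 1 to 4. Sp8 had 331, 215, 312 and 694 in Slm2KO 1 to 4, against 354, 487, 586 and 281 in WT 1 to 4. Slm2KO 4 was highest, WT 3 next and Slm2KO 2 lowest for both, as for Cacna2d2. Sp8 and Lhx1 had exactly the order of the 8 libraries that Cacna2d2 had, and Eomes had the same highest and lowest libraries. What these genes share with the channel genes was not tested.

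Several markers of CA1 pyramidal cells were low in Slm2KO 4 and WT 3, the 2 libraries where Cacna2d2 was highest. Fibcd1 had 1761 normalised reads in Slm2KO 4 and 1559 in WT 3, against 3130 to 4622 in the other 6 libraries. WT 2, the next highest library for Cacna2d2, was among these 6 at 3576. Mpped1 had 3261 in Slm2KO 4 and 3013 in WT 3, against 5163 to 6748 in the other 6. Wfs1 was lowest in these 2 libraries too, and Man1a was lowest in WT 3 but not low in Slm2KO 4. Their part in the Cacna2d2 values was not tested.

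**Figure D4:**
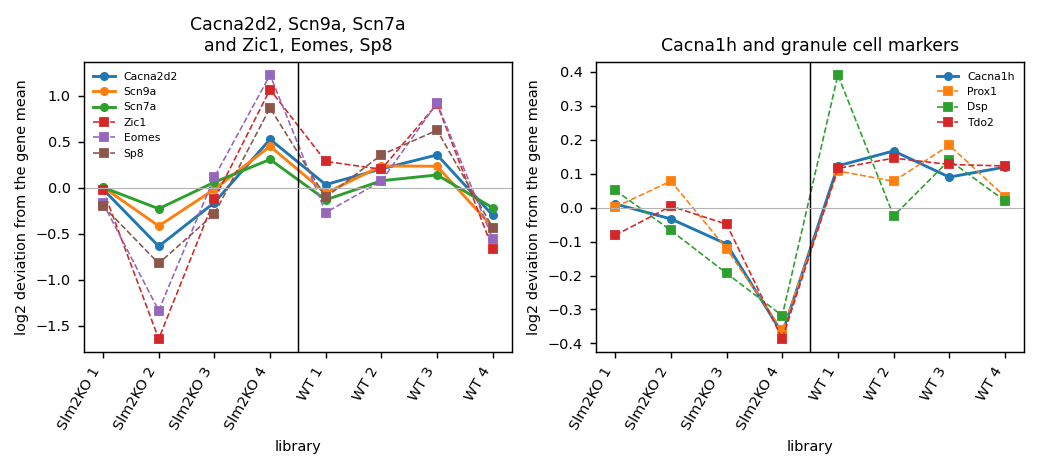
Log2 deviation from the gene mean in each library, Slm2KO 1 to 4 left of the line and WT 1 to 4 right, for channel genes (circles, solid lines) and other genes (squares, dashed lines). Cacna2d2, Scn9a and Scn7a peak in Slm2KO 4 with Zic1, Eomes and Sp8, and Cacna1h is lowest in Slm2KO 4 with Prox1, Dsp and Tdo2. Zic1, Eomes and Sp8 were chosen after their values were seen.

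A single library set many of the low values. Slm2KO 4 was the lowest library for 15 of the 25 members with a mean of at least 1000 and for 42.6% of the 10831 features as abundant. The median deviation of these 25 members from their gene means on the log2 scale was -0.19 in Slm2KO 4, against -0.072 for the features as abundant. WT 2, at the other end, had a median member deviation of 0.14, against 0.0091 for the features as abundant, and was the highest library for 9 of the 25. Slm2KO 2 was close to it, with a median member deviation of 0.12, against 0.034 for the features as abundant, and was highest for 8. Slm2KO 4 and WT 2 also had the highest and lowest Ttr, at 2262370 normalised reads in Slm2KO 4 and 219052 in WT 2. The part of choroid plexus RNA in the member values was not tested. With Slm2KO 4 and WT 2 left out, 0 members were called, beside 1 of all 25667 features.

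**Figure D5:**
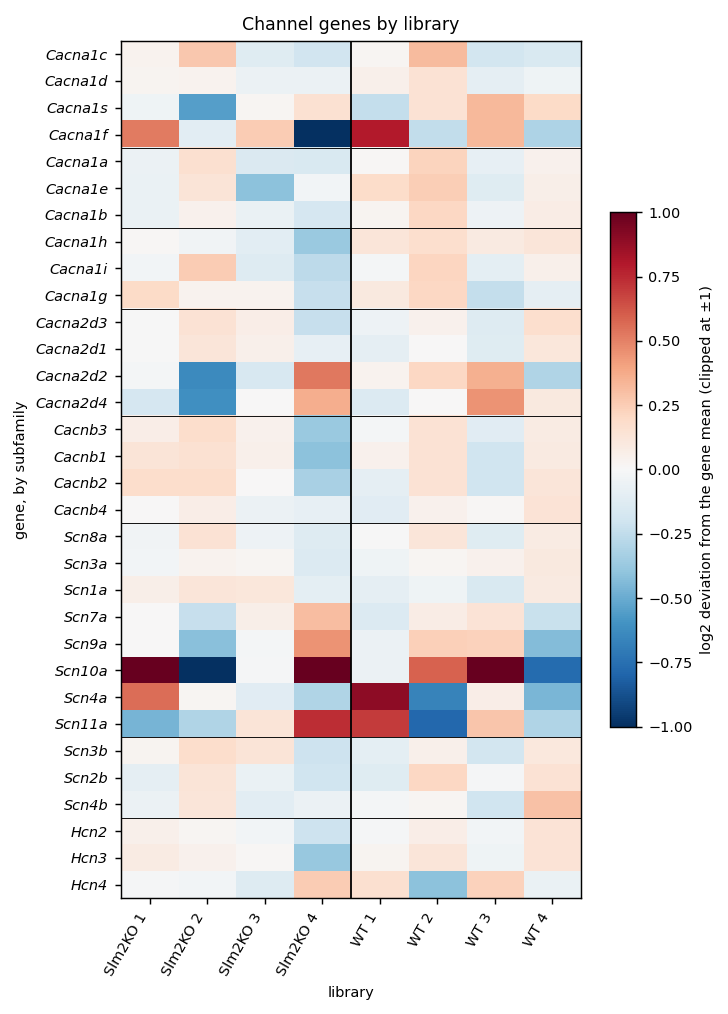
Log2 deviation of 32 channel genes from their own means (colour, red above and blue below, clipped at ±1) in the 4 libraries labelled Slm2KO (left of the line) and the 4 WT libraries (right), by subfamily. Slm2KO 4 is blue for most abundant genes and red for Cacna2d2, Scn9a and Scn7a, while WT 2 is red for most.

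Genes grouped here as partners of these channels gave no call either. The list of partners held 39 genes, among them ankyrins, FGF homologous factors, calmodulins and gamma subunits. It also held the NALCN complex, which forms a channel of its own. Of these, 38 matched a symbol, Cbarp was not analysed here, and 37 were tested, Cacng1 having a mean under 10. None of the 37 was called by limma, edgeR or DESeq2, and at an unadjusted p under 0.05 limma gave 2, or 5.41%, and edgeR and DESeq2 4 each, or 10.8%, beside 3.52%, 3.8% and 3.68% of all features. The differences were positive for 13 and negative for 24, with a median of -0.023, beside 53.9% negative and a median of -0.011 over all features.

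The partners with the smallest p were Stac2, Cacng6, Unc80, Nfasc, Fgf12 and Cabp1. Stac2, an adaptor of L-type channels, had 9464, 9908, 9693 and 9132 normalised reads in Slm2KO 1 to 4, against 9806, 11291, 11155 and 10707 in WT 1 to 4. Only Slm2KO 2 reached into the WT range, and the log2 difference was -0.17 (unadjusted p = 0.014, adjusted p = 1.00, limma). Cacng6, a gamma subunit gene, averaged 37.5 ± 10.7 normalised reads in the libraries labelled Slm2KO and 58.2 ± 11.3 in the WT libraries (SD, n = 4 each), a log2 difference of -0.64. The other 4 had differences of -0.18 for Unc80 of the NALCN complex, -0.14 for the nodal adhesion gene Nfasc, 0.11 for the sodium channel modulator Fgf12 and -0.16 for the calcium-binding protein gene Cabp1. None of these passed the threshold.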

How the data were processed

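RNA-seq libraries were built, per the labels' protocols, with an Illumina TruSeq RNA kit, a type that keeps no strand. The deposited table gives a signal value per gene and library: reads that the authors scaled with DESeq, per the submitters' processing notes, without division by gene length. FastQC, Picard and SAMtools are named there too. For the aligner and counting program, the sources used here are silent. The build listed there is hg19, while the file header gives mm10 coordinates, which are used here. Within 0.001, 100% of the signal values were whole multiples of a step per library, so whole reads were recovered. Size factors ran from 0.928 to 1.11. The step of WT 1 was too near 1 to be told from rounding by itself.

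Groups were compared with limma 3.58.1 (R 4.3.3) on log2(value + 1), with a trended prior, for the 25667 features with a mean of at least 10, and Benjamini-Hochberg adjustment over all of them at a threshold of 0.05. Fold changes on that scale understate those of low genes, and intervals are 95% intervals of the fit. The procedure was tested on simulated data. Single genes also had a two-sided exact permutation test over 70 assignments. On recovered reads edgeR 4.0.16 called 1 feature and DESeq2 1.42.0 called 9. Levels were divided by the union of GENCODE vM21 exons. Members are named, with the 6 partners of smallest p; a few members and marker genes are not reported here, though counts over the 35 members include them. Members and lists were chosen with earlier results of these data known. Alternatives covered scaling, filter, pseudocount, test, covariates and left-out libraries.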

Additional observations from a re-analysis of the deposited data

How the results depend on the processing

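Members and partners called numbered 0 under each of the 21 alternative fits. The count of features called, 1 with all libraries, was 2 with a pseudocount of 10, 9 in DESeq2 and 0 in limma without the trend, which gave 482 higher and 515 lower features at an unadjusted p under 0.05. It ran from 0 to 2 with a library left out and was 0 without Slm2KO 1, Slm2KO 3, WT 1 or WT 4. In DESeq2 4 members have no adjusted p. Khdrbs3 passed in DESeq2 (log2 0.43, adjusted p = 0.019). Deviations of same-numbered libraries correlated at 0.12, 0.32, -0.065 and -0.12, and those of differently numbered ones at -0.32 to 0.32. Such correlations cannot decide whether the replicate numbers pair the samples. With the replicate block 1 feature and 0 members were called, and Cacna1e joined Cacna1h at an unadjusted p under 0.05 in limma. That fit gave 399 higher and 600 lower of 25667 features under 0.05 unadjusted. Of 814 values of single genes under the alternatives, 752 kept sign and side of the threshold, and 12 of the 32 members reported kept their sign throughout. The cause of the others was not tested. Log2 differences of opposite sign came with quantile normalization for Cacna1c 0.0035, and with array weights for Cacna1c 0.0051, Cacna1f 0.012, Cacnb3 0.012, Cacnb1 0.030, Hcn4 -0.0039, Scn9a -0.034, Scn11a -0.034 and Cacna2d3 0.018. Without the libraries of lowest and highest Ttr they came for Cacna1c 0.17, Cacna1d 0.030, Cacna1i 0.054, Cacnb3 0.11, Cacnb1 0.13, Hcn3 0.0016, Hcn4 -0.16, Scn8a 0.034, Scn9a -0.057, Scn4a -0.015, Scn11a -0.44 and Cacna2d3 0.072. With a pseudocount of 10 it was Scn10a 0.0064, in edgeR Scn10a 0.24 and Scn4a -0.0046, and in DESeq2 Scn10a 0.23 and Scn4a -0.0070. With a library left out, members whose sign turned had these ranges of log2 difference: Cacna1c -0.093 to 0.10, Cacna1d -0.063 to 0.014, Cacna1f -0.50 to 0.082, Cacna1g -0.066 to 0.090, Cacnb3 -0.11 to 0.071, Cacnb1 -0.11 to 0.092, Cacnb2 -0.053 to 0.12, Cacnb4 -0.082 to 0.0027, Hcn4 -0.086 to 0.13, Scn8a -0.092 to 0.00011, Scn7a -0.021 to 0.16, Scn9a -0.14 to 0.15, Scn10a -0.995 to 0.65, Scn4a -0.13 to 0.39, Scn11a -0.20 to 0.29, Scn4b -0.12 to 0.040, Cacna2d3 -0.064 to 0.061 and Cacna2d2 -0.35 to 0.042. Of the 10 members with a mean under 1000, 7 had intervals within 2-fold, and those of Cacna1f and Scn10a, among the others, reached past 2-fold.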
